A study of Mus musculus with 6 samples.

Results

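The S100 proteins are a family of small proteins, most of them calcium-binding. Of their genes 10 were followed as a set through light damage of the retina in albino BALB/c mice: S100a1, S100a3, S100a4, S100a6, S100a8, S100a9, S100a10, S100a11, S100a13 and S100b. A gene was measured where the array's annotation assigned a probe set (a group of short oligonucleotides that reads 1 transcript) to that gene alone. This gave 9 of the 10 genes with 13 probe sets, out of 18193 genes and 45101 probe sets in all. The probe set that reads S100a11 is shared with further genes, so S100a11 is not analysed here. RNA was measured on 6 Affymetrix arrays. All mice were dark adapted for 1 week. The dark adapted group has 3 arrays of retinas from mice that received no damaging light. The light damaged group has 3 arrays of retinas taken 24 h after 6 h of white fluorescent light at 6000 lux. Neither the age of the mice nor the number of retinas per array is stated in the labels. The labels do not call the replicates separate animals, so a p-value here weighs a change against the scatter of these arrays alone, which could be technical.

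An S100 protein carries a pair of EF hands, the helix-loop-helix motif that holds calcium in most members. Most act as dimers that change shape with calcium and then bind a target protein. S100b is a classical marker of astrocytes and of Müller cells, the radial glia of the retina. S100a6, S100a10 and S100a11 bind annexins at membranes and the cytoskeleton. S100a8 and S100a9 form calprotectin, the abundant calcium- and zinc-binding complex of neutrophils and monocytes. The comparison asks how these genes differ after light damage and how the members known from glia and other tissue cells stand beside the myeloid pair.

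S100a6 and S100a10 were about 5-fold higher in light damaged retinas. S100a13 and, by its brighter probe set only, S100a1 were about 2-fold higher, and no member passed the test in the other direction. S100a8 and S100a9 stayed near the lower end of the arrays' range in both groups. Values are log2 expression from RMA (robust multi-array average), on which a difference of 1 is a 2-fold change. They were tested with limma over all 18193 genes at a Benjamini-Hochberg adjusted p under 0.05. By that rule 4 of 9 members rose and 0 fell, where 1.74% of all genes rose and 0.269% fell. In this fit no member had a negative change at an unadjusted p under 0.05, where 441 of all 18193 genes did. With the replicate number as a block in limma S100b did (-0.26, unadjusted p = 0.0332, adjusted p = 0.175). The 3 light damaged values lay above all 3 dark adapted values in the same 4 members, which held for 11.9% of all genes. The median change was 0.33 over the 9 members and 0.03 over all genes. In RNA of whole retina, more cells that carry a transcript and more RNA per cell cannot be told apart.

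**Figure D1:**
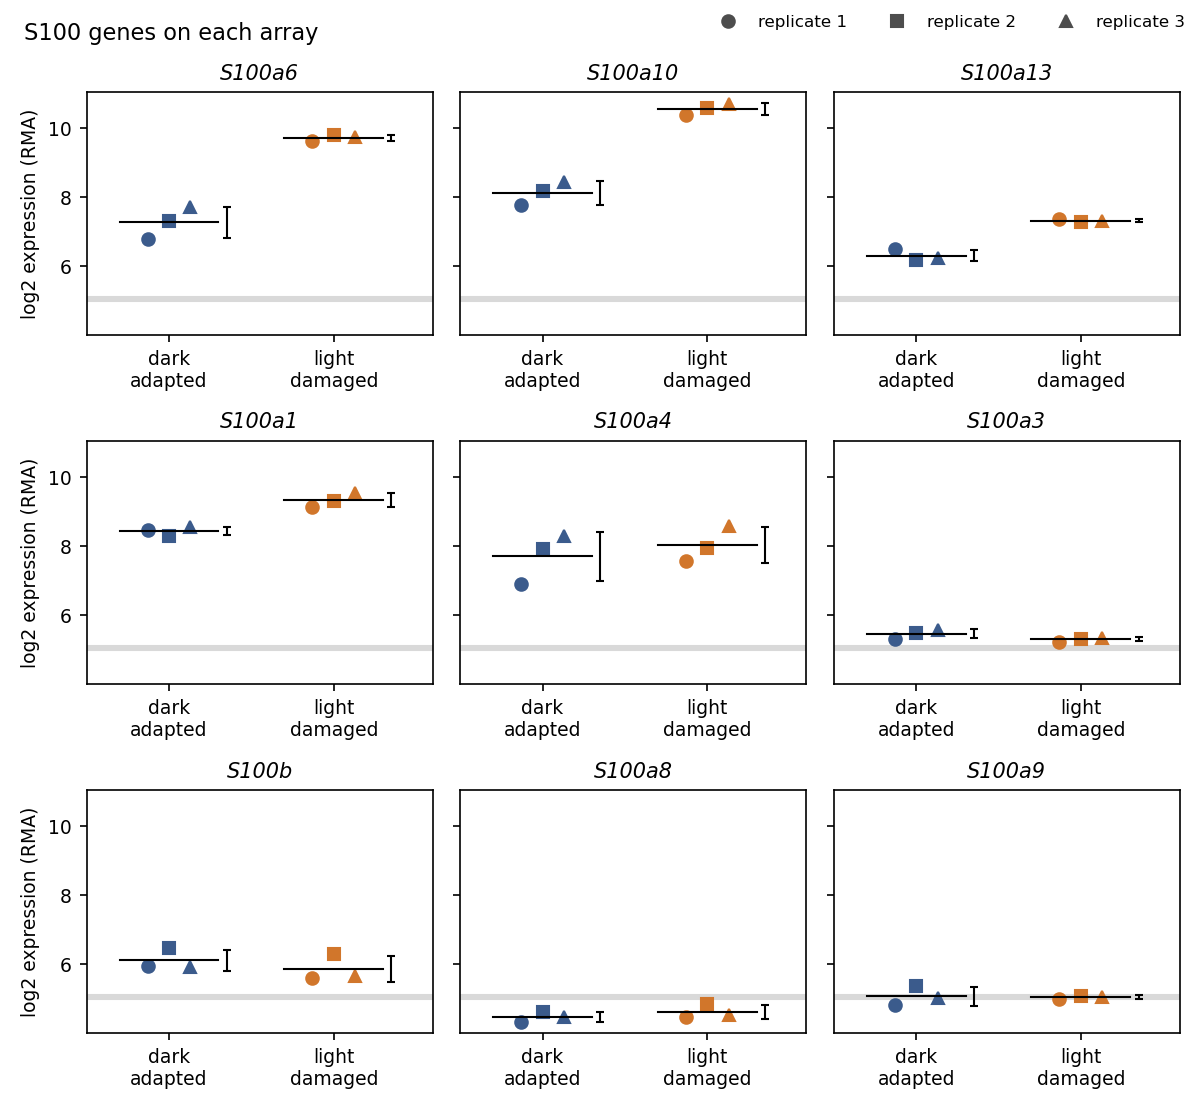
Log2 expression (RMA, vertical axis) of 9 S100 genes on each of 3 dark adapted (blue) and 3 light damaged (orange) arrays; marker shapes give the replicate number, lines the group means, bars ± 1 SD, and the grey band the range of the arrays' lower quartiles (4.98 to 5.11). The groups do not overlap for S100a6, S100a10, S100a13 and S100a1, and S100a8 lies below the grey band on all 6 arrays.

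S100a6 (calcyclin), which binds annexins and the calcyclin binding protein, had the highest rise of the members, together with S100a10. It read 6.81, 7.32 and 7.71 on dark adapted replicates 1 to 3 and 9.64, 9.81 and 9.74 on light damaged replicates 1 to 3. All light damaged arrays lay close together, whereas the dark adapted arrays spread over a wider range, with replicate 1 the lowest. The means were 7.28 ± 0.46 and 9.73 ± 0.09 (SD, n = 3 per group). The rise was 2.45 ± 0.22 (log2, SE), or 5.46-fold, with limma adjusted p = 0.00142. It was the 12th highest rise of the 18193 genes, a description of its place and no further test. S100a6 was read by a single probe set.

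S100a10 (p11), the partner of annexin A2 in a complex that carries channels to the cell surface, moved almost in step with S100a6. It read 7.77, 8.18 and 8.45 on dark adapted and 10.39, 10.60 and 10.72 on light damaged replicates 1 to 3. Again dark adapted replicate 1 was the lowest and the groups lay far apart. The rise was 2.44 ± 0.19 (log2, SE; means 8.13 ± 0.35 and 10.57 ± 0.17, SD, n = 3 per group), or 5.41-fold, with limma adjusted p = 0.00103. It ranked 13th among all rises. Averaged over its 3 probe sets the rise was 1.57 (adjusted p = 0.000815). Over the 6 arrays the log2 values of S100a6 and S100a10 had a Pearson r of 0.997, which the difference between the groups dominates.

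S100a13, a protein that takes part in the export of fibroblast growth factor 1, which lacks a signal peptide, rose less but with little spread. Its values were 6.50, 6.18 and 6.25 on dark adapted and 7.37, 7.28 and 7.32 on light damaged replicates 1 to 3. The lowest light damaged value lay above the highest dark adapted one. The rise was 1.02 ± 0.13 (log2, SE), or 2.03-fold, with limma adjusted p = 0.00737. With arrays centred on reference genes it was 0.78 and missed the threshold (adjusted p = 0.0601).

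S100a1, best known as a regulator of calcium cycling in heart muscle, gave different answers by probe set. The brighter probe set read 8.48, 8.31 and 8.56 on dark adapted and 9.15, 9.33 and 9.56 on light damaged replicates 1 to 3. It rose by 0.90 ± 0.15 (log2, SE), or 1.86-fold, with limma adjusted p = 0.0226. The dimmer probe set read 6.996, 7.07 and 7.22 against 7.11, 7.36 and 7.35, so its groups overlapped. Its change was 0.18 ± 0.13 (log2, SE), with adjusted p = 0.858 over all 45037 probe sets that are no controls. Averaged over both, the change was 0.54 and missed the threshold (adjusted p = 0.0816). The call on the brighter probe set was lost with dark adapted replicate 2 or with light damaged replicate 2 or 3 left out (adjusted p = 0.115, 0.101 and 0.106). It was also lost after a further quantile normalization and with arrays centred on reference genes (adjusted p = 0.101 and 0.296). The rise of S100a1 therefore holds for 1 probe set and for part of the settings only.

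**Figure D2:**
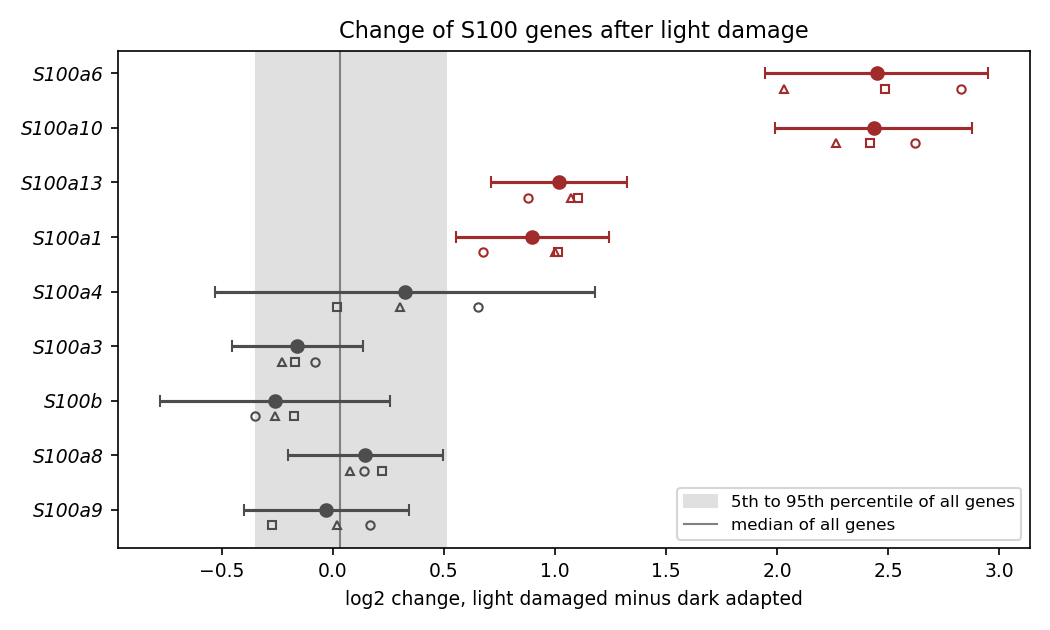
Log2 change (light damaged minus dark adapted, horizontal axis) of the 9 measured S100 genes; filled points with bars are limma estimates with 95% confidence intervals, red where the adjusted p is under 0.05, and open symbols below them are the differences of the same-numbered arrays (circle 1, square 2, triangle 3). The intervals of S100a6, S100a10, S100a13 and S100a1 lie above the grey band that holds the 5th to 95th percentile of all genes (-0.35 to 0.51).

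S100a4 (metastasin), a partner of non-muscle myosin found in fibroblasts, immune cells and some astrocytes, varied most between arrays of 1 group. It read 6.92, 7.92 and 8.30 on dark adapted and 7.57, 7.94 and 8.60 on light damaged replicates 1 to 3. The groups overlapped widely, and replicate 1 was the lowest and replicate 3 the highest in both. The change was 0.33 with a 95% confidence interval of -0.53 to 1.18 (limma adjusted p = 0.886). The difference was positive for each pair of same-numbered arrays (0.65, 0.02 and 0.30). With the replicate number as a block the interval was 0.03 to 0.63 and the adjusted p 0.182, so the call was the same, and the interval of S100a13 was then 0.78 to 1.26. Whether the changes of S100a4 and S100a13 differ was not tested. Without dark adapted replicate 1 the change was -0.070.

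S100b, the glial marker of the family, did not rise. Its brighter probe set read 5.95, 6.46 and 5.93 on dark adapted and 5.60, 6.29 and 5.67 on light damaged replicates 1 to 3. The groups overlapped, with replicate 2 the highest in both. The change was -0.26 with a 95% confidence interval of -0.78 to 0.26 (limma adjusted p = 0.82). The difference was negative for each pair of same-numbered arrays (-0.35, -0.17 and -0.26), and with the replicate number as a block the interval was -0.50 to -0.03 (adjusted p = 0.175). The dimmer probe set read 5.57, 5.19 and 5.72 on dark adapted and 5.16, 4.59 and 5.17 on light damaged replicates 1 to 3, which lay just below the dark adapted ones. It gave -0.52 ± 0.21 (log2, SE), and its adjusted p over all probe sets was 0.52, or 0.0338 with the replicate number as a block. The upper end of the interval of the brighter probe set corresponds to a 1.2-fold rise. Both probe sets were dim: the means of the brighter one (6.11 and 5.85) lay under the arrays' medians (6.15 to 6.18). The light damaged mean of the dimmer one (4.98) lay at the arrays' lower quartiles (4.98 to 5.11). The interval therefore bounds the signal of the probe set more than the transcript.

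S100a3, a protein known from the hair cuticle, was dim in all samples. It read 5.31, 5.50 and 5.57 on dark adapted and 5.24, 5.32 and 5.34 on light damaged replicates 1 to 3, and the groups overlapped. Its change was -0.16 with a 95% confidence interval of -0.45 to 0.14 (limma adjusted p = 0.802). It was negative for each pair of same-numbered arrays (-0.08, -0.17 and -0.23). With the replicate number as a block in limma the interval was -0.39 to 0.08 (adjusted p = 0.417).

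S100a8, the smaller chain of calprotectin, read 4.33, 4.62 and 4.46 on dark adapted and 4.47, 4.84 and 4.53 on light damaged replicates 1 to 3. All 6 values were under all of the arrays' lower quartiles (4.98 to 5.11), so only a change large enough to lift it off this floor could be seen. The change was 0.15 with a 95% confidence interval of -0.20 to 0.49 (limma adjusted p = 0.866). It was positive for each pair of same-numbered arrays (0.14, 0.22 and 0.08). With the replicate number as a block in limma the interval was -0.09 to 0.38 (adjusted p = 0.457). S100a9, the partner of S100a8, read 4.81, 5.36 and 5.04 against 4.98, 5.09 and 5.05, around the lower quartile. Its change was -0.03 with a 95% confidence interval of -0.40 to 0.34 (limma adjusted p = 0.988), and its pairs of same-numbered arrays differed by 0.17, -0.27 and 0.02. The signs of both genes' changes depend on the scaling: S100a8 was at -0.093 with arrays centred on reference genes, and S100a9 at 0.0037 after a further quantile normalization. A rise in either gene was not detected on these arrays, and so near the floor the intervals bound the probe set's signal, not the transcript.

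Probe sets of 1 gene did not always move alike. S100a10 was read by 3 probe sets, and the brighter ones rose by 2.44 and 2.04. The dimmest read between 5.09 and 5.66 on all arrays, close to the lower quartile, and its change of 0.25 did not pass (limma adjusted p = 0.762 over all probe sets). Of the 13 member probe sets 5 were higher and 0 lower by the fit over all probe sets, where 0.913% of all were higher and 0.104% lower. These 5 were the single probe sets of S100a6 and S100a13, the brighter one of S100a1 and the brighter ones of S100a10. With the replicate number as a block 5 were higher and 1 lower, the dimmer probe set of S100b, where 3.48% and 1.2% of all were. With 1 array left out the count was 3 or 4. It was 3 without dark adapted replicate 2 and without light damaged replicate 1, 2 or 3.

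**Figure D3:**
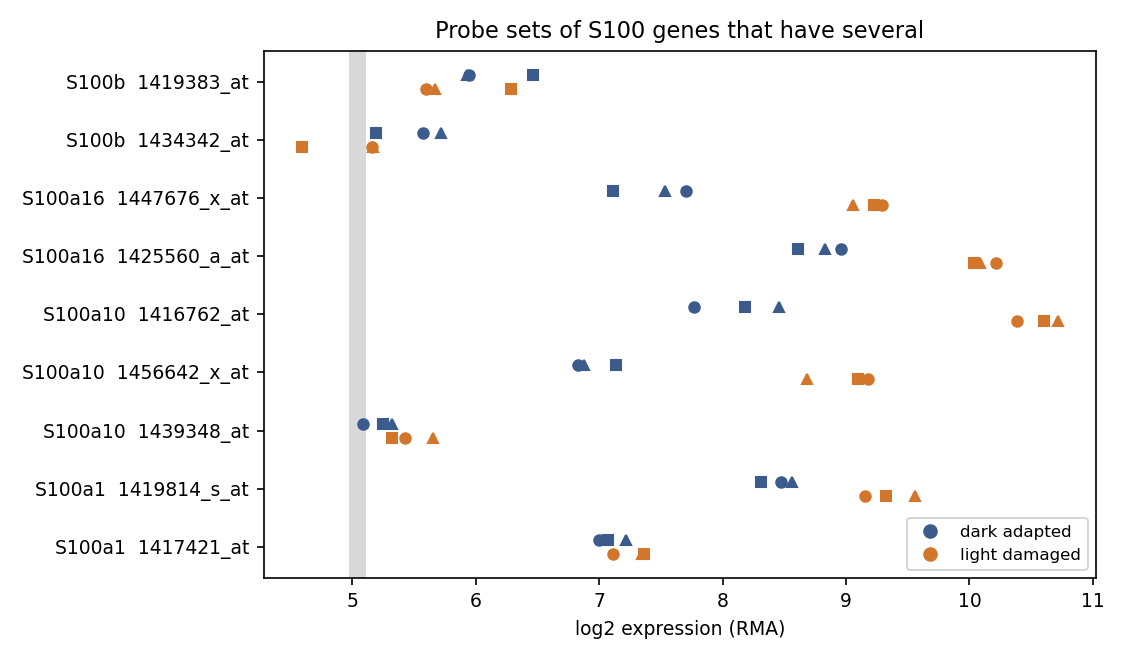
Log2 expression (RMA, horizontal axis) of each probe set of S100a1, S100a10, S100b and S100a16 on dark adapted (blue) and light damaged (orange) arrays, with marker shapes for replicates 1 (circle), 2 (square) and 3 (triangle); the grey band is the range of the arrays' lower quartiles. The groups lie apart for both probe sets of S100a16, for the brighter ones of S100a10 and for the brighter one of S100a1, overlap for the dimmer one of S100a1, the dimmest of S100a10 and the brighter one of S100b, and lie just apart, light damaged lower, for the dimmer one of S100b.

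All members but S100b lie on mouse chromosome 3. In the order of RefSeq's GRCm38.p6 gene table this chromosome has 15 S100a genes, of which 12 form 1 block without another coding gene between them. S100a11 and S100a10 lie beyond 54 other coding genes. Of the 15 genes 12 were measured and 5 rose, where 1.74% of all genes did: S100a1, S100a13, S100a16, S100a6 and S100a10. S100a1 is counted here by its brighter probe set only, and its call holds for part of the settings. S100a16, a widely expressed family gene outside the set of 10, rose by 1.31 ± 0.14 (log2, SE; limma adjusted p = 0.00294), and both its probe sets were higher. Genes that rose and genes that did not pass were interspersed along the block. S100a14 (-0.06) lies between S100a13 and S100a16, and S100a5 (-0.11) directly before S100a6. Of 55 other coding genes within the span of these S100 genes 36 were measured and 0 passed the limma test. Their changes ran from -0.52 to 0.18, with the lowest adjusted p at 0.46. Of 6 measured flanking genes 0 passed as well (lowest adjusted p = 0.643). Over all genes 1.74% rose and 0.269% fell, so 0 among so few genes does not set these neighbours apart. Flg, Hrnr and Tchh, within the span, had group means of 3.55 to 3.72, under the arrays' lower quartiles (4.98 to 5.11).

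**Figure D4:**
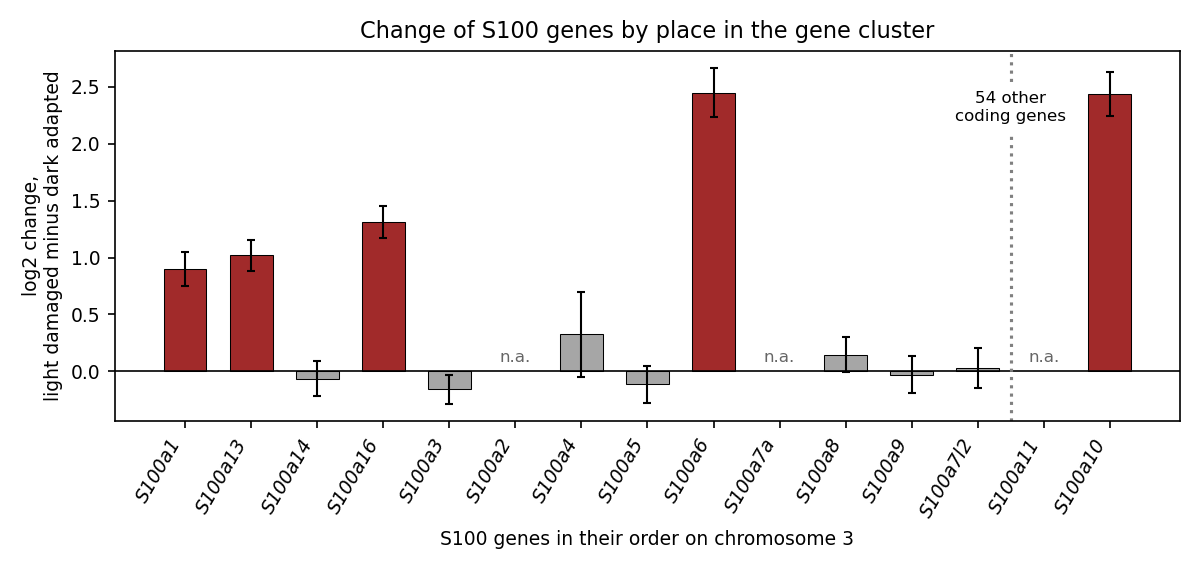
Log2 change (light damaged minus dark adapted, vertical axis; bars ± SE) of the S100a genes in their order on chromosome 3, red where the limma adjusted p is under 0.05 and grey elsewhere; n.a. marks genes not analysed here, and the dotted line stands for 54 other coding genes. The 5 genes that rose stand among neighbours between -0.16 and 0.33.

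S100a1 and S100a13 are divergent neighbours: the RefSeq starts of their promoter windows lie 105 bases apart on opposite strands. The 104 bases between the starts, at chr3:90514331-90514434 (GRCm38.p6, plus strand), are shown because both genes passed, S100a1 by its brighter probe set only. Capitals mark the 3 CG dinucleotides, and 58.7% of the bases are G or C.
S100a1 to S100a13: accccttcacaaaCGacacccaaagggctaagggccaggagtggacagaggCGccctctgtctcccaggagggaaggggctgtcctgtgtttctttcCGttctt
For S100a6, 1 of the largest rises, and for the calprotectin genes, which did not pass, the 250 bases before the start are set side by side, at chr3:90612644-90612893 (plus strand), chr3:90668821-90669070 (plus strand) and chr3:90695722-90695971 (minus strand). Capitals mark matches to the motifs searched.
S100a6: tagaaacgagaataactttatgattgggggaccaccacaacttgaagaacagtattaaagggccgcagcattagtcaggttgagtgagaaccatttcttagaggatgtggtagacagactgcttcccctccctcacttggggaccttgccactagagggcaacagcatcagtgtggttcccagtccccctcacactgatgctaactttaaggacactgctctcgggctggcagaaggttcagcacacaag
S100a8: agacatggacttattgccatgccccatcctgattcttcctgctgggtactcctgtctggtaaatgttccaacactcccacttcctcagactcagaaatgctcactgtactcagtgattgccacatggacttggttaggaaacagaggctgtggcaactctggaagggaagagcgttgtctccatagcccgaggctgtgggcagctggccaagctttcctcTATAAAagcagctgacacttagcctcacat
S100a9: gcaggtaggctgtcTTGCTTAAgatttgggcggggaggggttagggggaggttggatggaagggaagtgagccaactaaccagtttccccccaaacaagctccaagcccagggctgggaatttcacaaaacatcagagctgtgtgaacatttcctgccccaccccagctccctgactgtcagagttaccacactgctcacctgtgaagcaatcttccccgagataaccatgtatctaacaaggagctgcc
RefSeq's promoter table held 12 windows for 9 of the 10 members and none for S100a10. Each window of 300 bases, from 250 before to 50 after the start, was searched on both strands for the motifs TTCNNNGAA (STAT), TGANTCA (AP-1), TTGCNNAA (C/EBP), TATAAA and an NF-kappaB motif. Over all 32851 windows they were held by 8.3% (STAT), 7.81% (AP-1), 10.8% (C/EBP), 13.6% (TATAAA) and 1.63% (NF-kappaB). Windows of S100a6, S100a1, S100a13 and S100b held none of them. S100a8 has TATAAA from 30 to 25 bases before its start, and S100a4 has it from 31 to 26 bases before. In S100a9 it begins at the start itself, and in 1 window of S100a3 it runs from 52 to 47 bases before. S100a9 has a C/EBP match from 236 to 229 bases before its start. S100a11 holds TGAGTCA at 136 and at 38 bases before its start, but no level was read for it. These matches are descriptions of letters and show no binding.

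Genes of proteins that bind S100 members were read on the same arrays, and Anxa2, Myh9, Tagln2 and Ahnak rose, the last 3 with calls that single arrays or the scaling decide. Of 28 measured partners and receptors 4 rose, 0 fell and 24 missed the threshold, where 1.74% and 0.269% of all genes rose and fell; the median was 0.21 against 0.03 over all genes. With the replicate number as a block 7 of them were higher and 0 lower, where 6.73% and 2.13% of all genes were. Anxa2, the annexin held by S100a10, rose from 7.90 ± 0.08 to 9.38 ± 0.21 (log2, SD, n = 3 per group), a change of 1.48 with limma adjusted p = 0.00213. That holds for 1 probe set: dimmer ones gave 0.06 and 0.27, and the mean of its probe sets missed the threshold (0.61, adjusted p = 0.0577). The probe set at 0.06 had group means of 3.84 and 3.90, under the arrays' lower quartiles (4.98 to 5.11). That at 0.27 had means of 5.15 and 5.42, near them, so little could be read from either. Myh9, the myosin heavy chain bound by S100a4, rose by 0.99 (adjusted p = 0.0205). Its call was lost in 5 of the 6 fits that leave out 1 array, all but that without dark adapted replicate 1 (adjusted p = 0.0535 to 0.0948), with arrays centred on reference genes (0.0844) and with the mean of its probe sets (0.0631). Tagln2 (transgelin 2) rose by 0.98 (adjusted p = 0.0142), a call lost without light damaged replicate 1 or 2 (0.0725 and 0.0813) and with centring (0.243). Ahnak, a scaffold of the S100a10 and annexin A2 complex, rose by 0.76 (adjusted p = 0.0429). Its 3 other probe sets, dimmer at dark adapted means of 4.59 to 5.89, lay between -0.18 and 0.01. Its call was lost with any 1 of the 6 arrays left out (adjusted p = 0.0521 to 0.18), with centring (0.339) and with the mean of its probe sets (0.777). Anxa1, a partner of S100a11, was at 0.88 and Anxa6 at 0.58 (limma adjusted p = 0.118 and 0.149, and 0.00642 and 0.0109 with the replicate block). Cacybp, the calcyclin binding protein gene, was at 0.26 (adjusted p = 0.6). Fgf1, the cargo of S100a13, was at -0.11 (adjusted p = 0.926). Ager and Tlr4, receptors of extracellular S100 proteins, were at -0.10 and 0.16 (adjusted p = 0.939 and 0.935).

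Of other EF-hand proteins Efhd2 and Sri rose. Of 19 measured genes 2 rose, 0 fell and 17 missed the threshold, where 1.74% and 0.269% of all genes rose and fell, and the median was -0.01. Efhd2 (swiprosin 1) rose by 1.73 and Sri (sorcin) by 1.20 (limma adjusted p = 0.00474 and 0.0376). The call of Sri was lost after a further quantile normalization (adjusted p = 0.0959), with arrays centred on reference genes (0.298) and in 5 of the 6 fits that leave out 1 array, all but that without dark adapted replicate 3 (0.0556 to 0.184). The replicate block gave 3 higher and 3 lower, where 6.73% and 2.13% of all genes were. Of 4 measured genes of S100-fused proteins, the large skin proteins that carry an S100 domain, 0 passed by limma. Likewise 0 had an unadjusted p under 0.05, where 1561 of all 18193 genes were higher and 441 lower. Rptn (repetin) had the smallest p (-0.43, adjusted p = 0.642). In both groups 3 of the 4 genes had means under the arrays' lower quartiles, so little could be read from them.

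The S100 genes that rose did so beside genes of reactive glia, on a list chosen with earlier results of these arrays known. Of its 12 genes 11 rose, 0 fell and 1 missed the threshold, where 1.74% of all genes rose and 0.269% fell; the median was 2.32. Its smallest adjusted p-values belonged to Lcn2 (lipocalin 2), which rose by 4.16, Serpina3n, a serine protease inhibitor, by 2.51, Cp (ceruloplasmin) by 2.13 and Cd44, the hyaluronan receptor gene, by 2.60. The mean log2 level of the list was 7.22 to 7.39 on dark adapted and 9.62 to 9.76 on light damaged arrays. Of 13 genes that mark Müller cells Vim (vimentin), also on the reactive glia list, rose by 1.67. The other 12 did not pass, and the median was -0.02. With the replicate block in limma 5 were higher and 3 lower, where 6.73% and 2.13% of all genes were. Glul was among the lower ones (-0.99, adjusted p = 0.00078 with the block). In the astrocyte list Aldh1l1 (2.27) and Gfap (1.75), the latter also on the reactive glia list, rose and 4 of 6 did not pass. The other probe set of Aldh1l1 gave -0.02, with group means of 5.28 and 5.27, near the arrays' lower quartiles (4.98 to 5.11). Of 12 neutrophil genes 0 passed by limma and 0 had an unadjusted p under 0.05. At that level 1561 of all 18193 genes were higher and 441 lower. Changes of the neutrophil genes ran from -0.31 to 0.18, and Mmp8 had the smallest p (-0.31, adjusted p = 0.546). The mean level of the neutrophil list was 6.10 to 6.35 on dark adapted and 6.05 to 6.31 on light damaged arrays. Of 11 monocyte and macrophage genes Lyz2 (lysozyme, 1.30) and Cd14 (0.84) rose and 9 did not pass, with a median of 0.02. With arrays centred on reference genes both calls were lost (adjusted p = 0.0961 and 0.28), and that of Cd14 also without dark adapted replicate 2 or light damaged replicate 2 or 3 (0.0761, 0.0837 and 0.0753). Of 12 microglia genes Cd68, a lysosomal protein, rose by 1.88 and 11 did not pass, with a median of 0.14; the replicate block gave 2 higher and 1 lower. The part of any of these cells in the S100 levels was not tested.

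**Figure D5:**
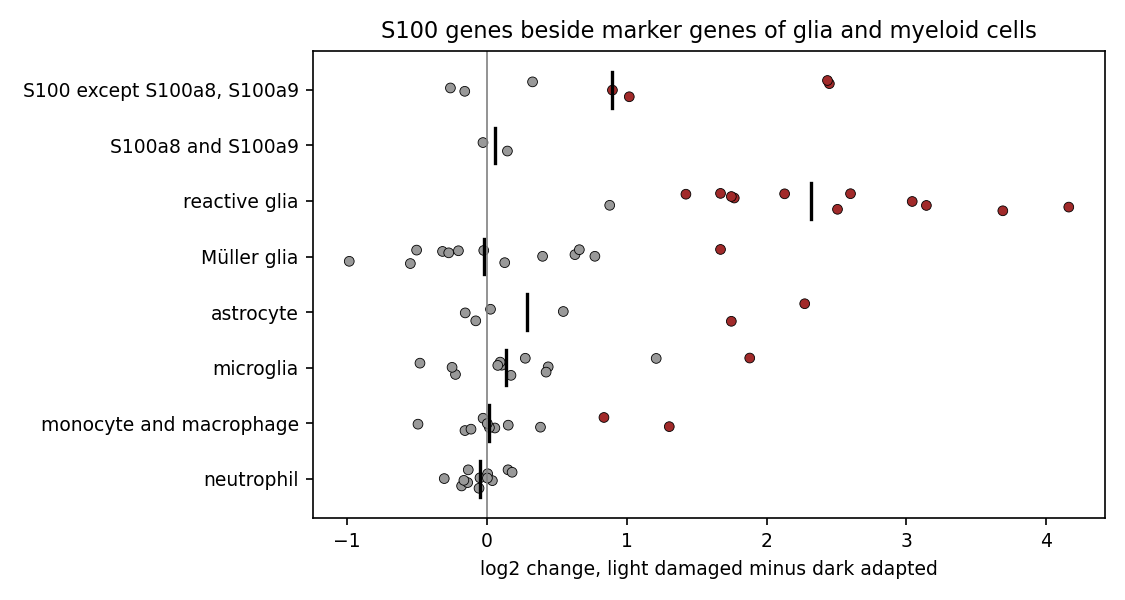
Log2 change (light damaged minus dark adapted, horizontal axis) of each measured gene (points, spread vertically for visibility) in the S100 genes and in 6 marker lists, red where the limma adjusted p is under 0.05, with a black line at each median. The medians are 2.32 for reactive glia and -0.05 for neutrophils, and S100a8 and S100a9 lie at 0.15 and -0.03.

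Tissues next to the retina also carry S100 genes, so their markers were read on the same arrays. None of 6 retinal pigment epithelium, 5 lens, 5 corneal and surface epithelium, 5 fibroblast, 6 vascular and 3 red blood cell genes passed the limma test. In that order 1, 0, 1, 0, 1 and 0 of them had an unadjusted p under 0.05, each of these higher. At that level 1561 of all 18193 genes were higher and 441 lower, so these counts do not set the lists apart. The median changes of the lists were 0.00035, -0.36, 0.06, -0.11, 0.26 and -0.00012. With the replicate block 1 pigment epithelium, 1 surface epithelium and 1 vascular gene were higher and 2 lens genes lower. Over all genes 6.73% were higher and 2.13% lower with the block. The genes with the smallest p of their lists were in part far from these medians. Aldh3a1, a corneal aldehyde dehydrogenase, was at 1.29 (limma adjusted p = 0.185, and 0.00159 with the block). Its light damaged arrays all lay above the dark adapted ones, as in 11.9% of all genes. Ttr (transthyretin), of the pigment epithelium list, was at 0.99, also with the groups apart (adjusted p = 0.274, and 0.0471 with the block). Kdr, a receptor of vascular endothelial growth factor, was at 0.44, again with the groups apart (adjusted p = 0.191, and 0.0318 with the block). Bfsp1, a lens filament protein gene, was at -1.12 with overlapping groups (adjusted p = 0.735, and 0.00028 with the block). Lum (lumican) of the fibroblast list was at -0.22 and Alas2, of heme synthesis in red cells, at -0.26 (adjusted p = 0.701 and 0.786). The lens list varied between arrays, with mean levels of 9.95 to 11.77 on dark adapted and 9.72 to 11.38 on light damaged arrays. Of 7 rod genes 2 fell, where 0.269% of all genes did: Nrl, a rod transcription factor, fell by 1.04 and Cngb1, a subunit of the rod cation channel, fell by 1.00 (limma adjusted p = 0.0378 and 0.0289). The call of Nrl was lost in 4 of the 6 fits that leave out 1 array, those without dark adapted replicate 1 or 2 or light damaged replicate 2 or 3 (0.0653 to 0.192), and with the trended, robust variance model (0.0605). That of Cngb1 was lost in 5, all but that without dark adapted replicate 3 (0.0533 to 0.116). The mean level of the rod list was 12.10 to 12.52 on dark adapted and 11.53 to 11.89 on light damaged arrays, and 4 genes fell with the replicate block, where 2.13% of all genes did. The part of these tissues in the S100 levels was not tested.

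Among 163 genes of the lists outside the set, those whose log2 values ran most like a risen member over the 6 arrays were found by Pearson r. For S100a6 they were Lgals3 (galectin 3, 0.998) and Vim (0.994), and for S100a10 Vim (0.993) and Lgals3 (0.992). Lgals3 read 6.62, 7.29 and 8.09 on dark adapted replicates 1 to 3, with the same array lowest and the same highest as for S100a6 and S100a10. This order is not particular to these genes. Every measured gene of the lens list had it on the dark adapted arrays (Lim2 read 8.38, 9.32 and 10.64), as had Aldh3a1 and S100a4. For S100a13 they were Aldh1l1 (0.998) and S100a16 (0.996), and for S100a1 Anxa2 (0.982) and Cd44 (0.97). All 6 points of each correlation share the step between the groups, so these values order the genes and are no test.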

How the data were processed

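Total RNA of BALB/c retinas was read on 6 Affymetrix arrays, 3 per group, with groups taken from titles. The authors deposited log2 values made with RMA, per the submitters' processing notes, which corrects background, quantile-normalizes and summarises probes. No RMA version is given there, and the log2 scale was judged from the range of 3.30 to 13.89. Quartiles of the deposited values still differed between arrays (upper 7.41 to 7.67, lower 4.98 to 5.11). RMA would hide a change in total RNA and compresses dim probe sets. Platform annotation assigned 34945 of 45101 probe sets to 1 gene, 932 to several and 9160 to none (64 controls). Entrez identifiers matched 34741 to RefSeq and changed 0 symbols. Each gene took its probe set with the highest mean. Groups were compared with limma 3.58.1 (lmFit, eBayes) in R 4.3.3, without a filter; folds are 2 to the power of the change. The fit was tested on simulated data. The members and lists were chosen with earlier results of these data known. Named were all members, up to 4 passing genes per list or else that with the smallest p, 9 binding partners (Anxa11, read by a shared probe set, is not analysed here) and the 2 list genes most like each risen member; further genes and probe sets were named after their values were seen. No protein sequences were used, and TATAAA was added after the data were seen. Same-numbered arrays deviated together (correlations 0.731, 0.618 and 0.432, others at most 0.00902), so the replicate number was taken to pair them, which no label states. Alternatives were the replicate block, scaling, filter, probe set choice, variance model and leaving out each array.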

Additional observations from a re-analysis of the deposited data

How the results depend on the processing

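S100a6 and S100a10 kept their rise and their call in every alternative that read them, with S100a10 at 1.57 in place of 2.44 by the mean of its probe sets (S100a6 has only a probe set ending in _a_at and gave no value without _s_at, _x_at and _a_at probe sets), and S100a13 in all but the centring on reference genes. The count of S100 genes that rose, 4, was 2 with that centring, 2 without those probe sets, and 3 to 4 with 1 array left out; 0 fell throughout. Centring moved the median change of all genes from 0.03 to -0.21, since the 7 reference genes had a mean change of 0.24 (Gusb, with the smallest p, was at 0.74, adjusted p = 0.0643), and turned 316 higher and 49 lower genes (86.6% higher) into 113 and 111 (50.4%). A further quantile normalization gave 327 and 162 (66.9%). The replicate block gave 1225 higher and 388 lower genes and changed no call of an S100 gene; of S100 probe sets 6 in place of 5 passed with it. With 1 array left out 141 to 384 rose and 9 to 82 fell, and S100 probe sets past the threshold numbered 3 to 4 in place of 5. Signs turned where changes were small: S100a9 (0.0037 after quantile normalization, -0.16 to 0.12 with 1 array left out), S100a8 (-0.093 with centring), S100a4 (-0.070 to 0.62 with 1 array left out), Tlr4 (-0.082 with centring, -0.067 to 0.37 with 1 array left out) and Ager (-0.23 to 0.085 with 1 array left out). Aldh1l1 was at -0.017 without _s_at, _x_at and _a_at probe sets, read then by its dimmer probe set. The calls of S100a1, Myh9, Tagln2, Ahnak, Sri, Cd14, Nrl and Cngb1 were each lost with some single array left out. Where no further reason is given the cause was not tested. Signal near the lower quartile limits S100a8, S100a9, S100a3 and the dimmer probe set of S100b.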
